A study of Mus musculus with 18 samples.

Results

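Transcripts of 10 genes that handle iron, heme and free metal ions were followed in mouse kidney by bulk RNA-seq. The genes were taken by name, and 10 of the 10 were found among the 78239 genes listed for each library. They comprised the iron importers *Tfrc* and *Slc11a2*, the iron exporter *Slc40a1*, the ferritin subunits *Fth1* and *Ftl1*, the heme synthesis enzymes *Alas1* and *Fech*, the heme-degrading enzyme *Hmox1*, and the metallothioneins *Mt1* and *Mt2*. The kidneys came from 6-wk-old wild-type offspring of outbred CD-1 dams, which had been fed either a low protein (LP) diet with 8% protein or a normal protein (NP) diet with 18% protein. Males numbered 5 on each diet, and females 5 on LP and 3 on NP, with 1 library per mouse from a portion of the left kidney. The study asked what a low protein maternal diet leaves behind in the adult kidney, within each sex. The sources used here do not tie the sequenced mice to litters, so p-values measure the spread between mice that may include littermates.

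Every mouse had been given horse spleen cationic ferritin, an iron-filled protein used to label glomeruli for imaging, before the kidneys were taken. Kidneys of males were taken 90 min, and those of females 24 h, after the final dose. No group went without the injection, and sex and time after ferritin changed together in these 18 mice. For each of the 10 genes, a difference between males and females therefore cannot be told apart from a difference between 90 min and 24 h after an iron load.

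Iron bound to transferrin enters cells through transferrin receptor (*Tfrc*), and the divalent metal transporter (*Slc11a2*) moves it across the membrane. Iron that is not used is stored in ferritin, a shell built of heavy (*Fth1*) and light (*Ftl1*) subunits, or leaves the cell through ferroportin (*Slc40a1*). Iron regulatory proteins bind short hairpins called iron responsive elements in several of these mRNAs, and when iron is scarce they hold back ferritin and ferroportin translation and protect the *Tfrc* mRNA from decay. Heme synthesis starts with *Alas1* and ends with *Fech*, which inserts iron, whereas heme oxygenase (*Hmox1*) opens the heme ring and frees its iron. Metallothioneins (*Mt1*, *Mt2*) bind zinc and copper and are induced by metals, glucocorticoids and stress.

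The hairpins are shown because this is the shape that iron regulatory proteins bind. The GENCODE vM39 transcripts (GRCm39) were searched on the sense strand for a C, 5 bases, the loop CAGTGN and 5 more bases, where the 5 bases before the loop pair with the 5 after it. Of the 9 genes other than *Fech*, 4 held such a hairpin in a protein-coding transcript, and 1.25% of 20896 protein-coding genes did so in the first listed transcript. G with T was counted as a pair, beside A with T and G with C. In *Slc11a2*, a hairpin with 4 pairs was taken after the stricter search had been seen. Pairs of G with T occur in that hairpin and in *Tfrc* b below. The loop is in capitals.
Fth1: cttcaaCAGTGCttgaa
Ftl1: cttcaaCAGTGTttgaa
Slc40a1: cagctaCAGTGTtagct
Tfrc a: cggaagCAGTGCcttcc
Tfrc b: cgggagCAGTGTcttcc
Tfrc c: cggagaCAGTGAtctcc
Tfrc d: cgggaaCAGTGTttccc
Slc11a2: cagagcCAGTGTgtttc

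The *Fth1*, *Ftl1* and *Slc40a1* hairpins lay in the 5′ UTR, at chr19:9960102-9960118 on the plus strand, chr7:45109209-45109225 on the minus strand and chr1:45964631-45964647 on the minus strand of GRCm39. The 4 *Tfrc* hairpins, labelled a to d, lay in the 3′ UTR on the plus strand, between chr16:32450043-32450059 and chr16:32450534-32450550. The *Slc11a2* hairpin lay in the 3′ UTR at chr15:100293040-100293056 on the minus strand. The 2 ferritin hairpins had the same bases on both sides of the loop. A match of letters is a description and was not tested for binding.

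Gene counts summed to between 14050486 and 23562411 reads in a library, and the sex-linked genes had the labelled sex in 18 of 18 libraries. Markers of proximal tubule, thick ascending limb, distal nephron, podocyte and endothelium all had counts. By average-linkage clustering over 12665 genes, LP female 1, LP female 2 and NP female 3 separated from the other 15 libraries at the first split. In these 3 females, 8 interferon-response genes summed to 103 to 157 CPM, counts scaled to a common library size, against 819 to 3246 in the other 5 females and 643 to 1285 in males. Their 6 glucocorticoid-response genes summed to 409 to 569.9 CPM, against 1197 to 1649.6 and 649 to 1176. These 3 libraries also had the highest shares of reads that map to several places, 7.92% to 12.56%, against 5.92% to 7.78% in the other 15. The labels give no reason for the separation, so values without these 3 mice are given beside the main results that include females.

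For 2 of the 10 genes, most reads were lost from the orientation-blind counts, which leave out reads that fall on genes of both strands. The libraries were non-directional, so summing the deposited counts for each orientation restores such reads but cannot separate a gene from its antisense partner. *Mt2* (ENSMUSG00000031762.8, chromosome 8, 94898819 to 94900207) overlaps the antisense gene *Gm45774*, and its orientation-blind counts came to 417 over 18 libraries against 49362 with the orientations summed, or 0.845%. *Ftl1* (ENSMUSG00000050708.17, chromosome 7, 45107367 to 45109308) overlaps the antisense gene *Gm10252* at its 5′ end, where its hairpin lies, and kept 106162 of 624725 counts, or 17%. The other 8 genes kept at least 97.9%, the lowest being *Slc11a2*. Among 14047 genes with at least 1000 summed counts, 14.5% kept under 20% and 7.18% under 1%. For *Mt2* and *Ftl1*, levels are given from the summed orientations. Reads that map to several places were not counted, so *Fth1* and *Ftl1*, which have processed pseudogenes, are uncertain in level.

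**Figure D1:**
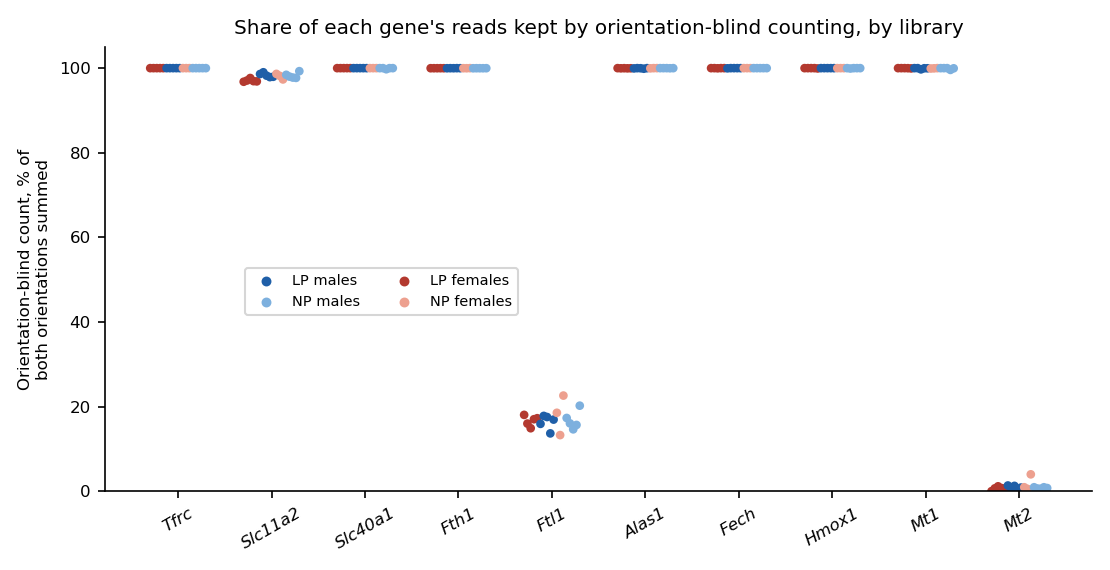
Orientation-blind count of each gene as a percentage of its count with both orientations summed, 1 point per library, colored by group. *Mt2* sits between 0% and 3.97% and *Ftl1* between 13.3% and 22.6%, and the other 8 genes are at or near the top of the axis.

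None of the 10 genes passed the test for maternal diet in either sex, whereas *Tfrc*, *Slc11a2*, *Fth1*, *Fech* and *Hmox1* were higher and *Mt1* was lower in males at 90 min than in females at 24 h. Levels are normalized read counts, which are counts divided by DESeq2 size factors. Of the 10 genes tested in males, 0 passed an adjusted p of 0.05 for LP against NP, where 0.0379% of 13181 genes passed. The test is edgeR's quasi-likelihood F test, and p-values marked BH-adjusted were adjusted by the Benjamini-Hochberg method over all genes tested. Of the 9 tested in females, where *Mt2* missed the minimum of 10 counts in every library, 0 passed, and 0% of 13510 genes did. In simulated data the female diet test found 21.6% of 2-fold changes, against 80.9% for the male diet test. Between males and females, with the 2 diets averaged, 6 of 9 genes passed, 5 higher and 1 lower in males. This share stands beside 38.7% of all 12665 genes tested, made up of 18.9% higher and 19.8% lower in males. The median log2 difference of the 9 genes was 0.49, against -0.05 for all genes. With the 3 separated females left out, 7 of 10 genes passed, *Mt2* from its orientation-blind counts, among 37.7% of all genes. In bulk RNA, fewer cells of a type and less RNA per cell cannot be told apart.

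**Figure D2:**
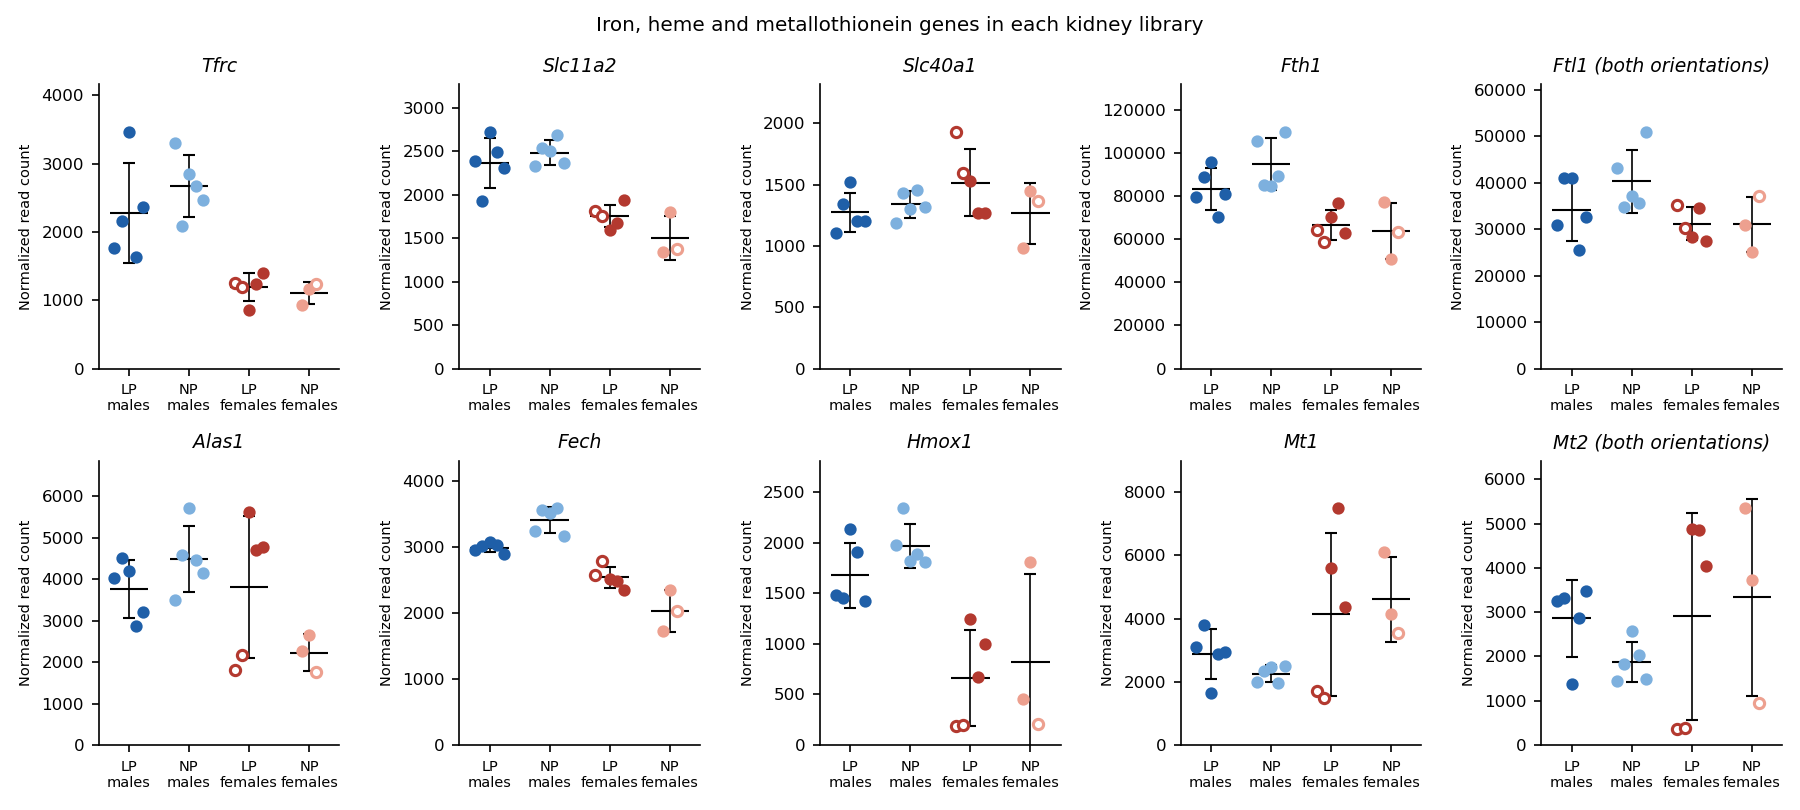
Normalized read count of each gene (linear axis from 0) by diet within males and then females, with 1 point per mouse, the group mean as a line and the SD as a bar, truncated at 0. Open points are LP female 1, LP female 2 and NP female 3, and *Ftl1* and *Mt2* are shown from the summed orientations. On these normalized counts, *Tfrc* and *Fech* are higher in each of the 10 males than in each of the 8 females.

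*Tfrc* (ENSMUSG00000022797.17, chromosome 16, 32427556 to 32451612), the receptor for transferrin-bound iron, was 2.14-fold higher in males. LP males had 1761, 2160.0, 3464, 1629.8 and 2364 normalized counts and NP males 3299, 2079.7, 2840.4, 2664 and 2466. LP females had 1258, 1189.7, 851, 1234 and 1405, and NP females had 926, 1169.7 and 1233. Each of the 10 males was above each of the 8 females, as held for 5.88% of all genes tested. The log2 difference was 1.10 (SE 0.14, BH-adjusted p = 1.41e-05 by edgeR), and it was 0.94 (BH-adjusted p = 0.00153) among LP mice and 1.26 (BH-adjusted p = 0.000636) among NP mice by edgeR. Without the 3 separated females it was 1.15, and these 3 lay within the range of the other females, from 1189.7 to 1258. LP over NP, the log2 fold change was -0.22 (SE 0.19, BH-adjusted p = 1.00) in males and 0.10 (SE 0.18, BH-adjusted p = 0.942) in females by edgeR, and 0.15 in females without the 3.

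*Slc11a2* (ENSMUSG00000023030.17, chromosome 15, 100285776 to 100322953), the divalent metal transporter, was also higher in males, by 1.49-fold. Its levels ran 2382, 1928, 2723, 2488 and 2309.6 in LP males and 2333, 2537, 2498, 2682 and 2365 in NP males. Those of LP females ran 1811, 1758, 1593, 1679 and 1933 and those of NP females 1338, 1797 and 1373. The sexes overlapped only through LP male 2 and LP female 5, whose levels were 1928 and 1933. The log2 difference was 0.58 (SE 0.08, BH-adjusted p = 2.09e-05 by edgeR), with 0.44 (BH-adjusted p = 0.00570) on the LP diet and 0.72 (BH-adjusted p = 0.000415) on the NP diet by edgeR. LP over NP, its log2 fold change was -0.06 in males and 0.22 in females, with BH-adjusted p of 1.00 and 0.886 by edgeR. Outside the 3 separated females, the sex difference was 0.55 (BH-adjusted p = 0.000376 by edgeR) and the diet difference in females 0.14. *Slc40a1* (ENSMUSG00000025993.11, chromosome 1, 45947211 to 45965683), the only known cellular iron exporter, ran from 1106 to 1518 with a median of 1310.4 in males and from 981 to 1929 with a median of 1408 in females. The ranges overlapped, and the log2 difference of -0.09 (SE 0.10, BH-adjusted p = 0.514) did not pass by edgeR and turned to 0.02 without the 3 separated females. LP female 1 had the highest *Slc40a1* level of all 18 libraries, 1929.

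The ferritin heavy subunit *Fth1* (ENSMUSG00000024661.8, chromosome 19, 9957911 to 9962462), which oxidizes iron for storage, was 1.36-fold higher in males. LP males had 79727, 89141, 95883, 70155 and 81264 normalized counts and NP males 105690, 85052, 84561, 89393 and 109916. LP females had 64521, 58779, 70504, 76929.5 and 63038, and NP females 77151, 50819.8 and 63572. On these normalized counts, 9 of the 10 males were above every female, and LP male 4 was not. On CPM the overlap was wider. NP female 1 at 4888 was above each LP male except LP male 3 at 5136, and above NP males 2 and 3 at 4870 and 4606. The log2 difference was 0.44 (SE 0.10, BH-adjusted p = 0.00266 by edgeR), and it was 0.40 (BH-adjusted p = 0.0160) without the 3 separated females by edgeR. Among NP mice alone it was 0.56 (SE 0.16, BH-adjusted p = 0.0149) by edgeR, and it did not pass without NP female 2 (0.42, BH-adjusted p = 0.0668) or without NP female 3 (0.55, BH-adjusted p = 0.0548), or with limma-voom (0.32, BH-adjusted p = 0.0650). Among LP mice alone it was 0.32 and did not pass (BH-adjusted p = 0.104 by edgeR).

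The light subunit *Ftl1*, with both orientations summed, ran from 25501 to 50953 with a median of 36426 in males and from 25108 to 37084 with a median of 30550.4 in females. The ranges overlapped, and the log2 difference was 0.25 (SE 0.12, BH-adjusted p = 0.111) by edgeR. From the orientation-blind counts, it was 0.18 (SE 0.19, BH-adjusted p = 0.480) by edgeR. LP over NP, the log2 fold change of *Fth1* was -0.18 in males and 0.07 in females, and that of *Ftl1* -0.23 and -0.00 with the orientations summed, all short of the threshold. The ratio of *Fth1* to *Ftl1* counts within a library, which needs no scaling between libraries, lay between 1.71 and 2.75 with the orientations summed. The lowest ratios were those of NP female 3, LP female 1 and LP female 2, at 1.71, 1.84 and 1.94. These libraries also had the highest shares of reads that map to several places, which were not counted. The part of such reads in the ratio was not tested. The log2 ratio differed by 0.20 between LP males and LP females (exact two-sided permutation p = 0.0873, n = 5 and 5) and by 0.20 between NP males and NP females (exact two-sided permutation p = 0.214, n = 5 and 3). Without the 3 separated females these differences were 0.0775 (exact permutation p = 0.393, n = 5 and 3) and 0.0712 (exact permutation p = 0.571, n = 5 and 2). With diet, the exact permutation p of this ratio was 0.429 in males and 0.714 in females, and after Benjamini-Hochberg adjustment over 8 ratio tests the lowest was 0.349. The smallest exact p these groups allow is 0.00794 for 5 against 5 mice and 0.0179 for 5 against 3.

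**Figure D3:**
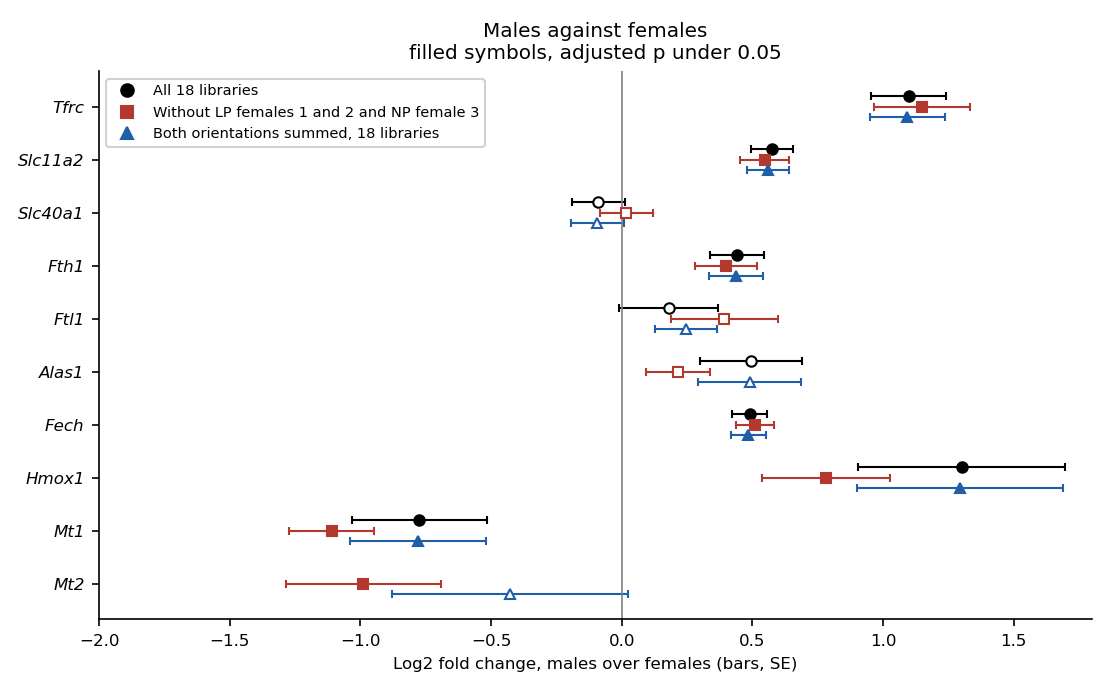
Log2 fold change of males over females, diets averaged, with the SE as a bar, for all 18 libraries (circles), without LP females 1 and 2 and NP female 3 (squares) and with both orientations summed (triangles). Filled symbols have an adjusted p under 0.05 by edgeR. *Tfrc*, *Slc11a2*, *Fth1*, *Fech* and *Hmox1* are to the right of 0 and *Mt1* to the left in all 3 fits, and males were collected 90 min and females 24 h after the injection.

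*Fech* (ENSMUSG00000024588.11, chromosome 18, 64585985 to 64623322), the enzyme that inserts iron into heme, was 1.40-fold higher in males, and its normalized LP and NP levels did not overlap within either sex. LP males had 2948, 3012, 3068, 3020.4 and 2891 normalized counts and NP males 3233, 3562, 3517, 3582 and 3159, so each LP male was below each NP male. LP females had 2574, 2783, 2512, 2482 and 2343 and NP females 1719, 2341 and 2027, so each LP female was above each NP female, though LP female 5 and NP female 2 had nearly the same level. On CPM, scaled by total count alone, the groups did overlap: LP male 4 at 180.1 was above NP males 1 and 5 at 174 and 174, and NP female 2 at 148 was above LP females 4 and 5 at 143 and 142. Groups that did not overlap between diets made up 0.675% of all genes tested in males and 2.96% in females. LP over NP, the log2 fold change was -0.18 (SE 0.07, BH-adjusted p = 1.00) in males and 0.32 (SE 0.14, BH-adjusted p = 0.886) in females by edgeR, or 0.27 in females without the 3 separated mice, and over all mice the unadjusted p stood at 0.0243 and 0.0451. The difference between these diet effects, females minus males, was 0.50 (SE 0.13, BH-adjusted p = 0.977 by edgeR). It did not pass with DESeq2's Wald test (BH-adjusted p = 0.0808) and passed with limma-voom with sample quality weights (0.65, BH-adjusted p = 0.0390). Between males and females the log2 difference was 0.49 (SE 0.07, BH-adjusted p = 1.92e-05 by edgeR). On normalized counts each of the 10 males was above each of the 8 females, as held for 5.88% of all genes tested. On CPM the sexes overlapped: LP female 2 at 182 was above each LP male, the highest being 180.1, and above NP males 1 and 5. By the same edgeR test the log2 difference between the sexes was 0.24 (BH-adjusted p = 0.0614) among LP mice, where it passed without NP female 1 (BH-adjusted p = 0.0387) or NP female 2 (BH-adjusted p = 0.0346), 0.74 (BH-adjusted p = 6.15e-05) among NP mice, and 0.51 without the 3 separated females.

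*Alas1* (ENSMUSG00000032786.17, chromosome 9, 106110642 to 106135734), which makes the first product of heme synthesis, had 2 separate ranges among LP females. LP females 1 to 5 had 1803, 2184, 5624, 4707 and 4784 normalized counts, where the first pair are separated libraries, and NP females had 2259, 2658 and 1771. LP males had 4031, 4521, 4195, 2878 and 3206, and NP males 3508, 4589.6, 5712, 4470.2 and 4154. LP females 3, 4 and 5 were above each NP female, and LP females 1 and 2 were not. LP over NP in females, the log2 fold change was 0.78 (SE 0.39, BH-adjusted p = 0.886 by edgeR). After leaving out the 3 separated females, it was 1.03 (SE 0.17, BH-adjusted p = 0.972) by edgeR, at an unadjusted p of 0.000395 with 3 LP and 2 NP mice. In males it was -0.24 (SE 0.15, BH-adjusted p = 1.00). The difference between the diet effects, females minus males, was 1.01 (SE 0.39, BH-adjusted p = 0.977) and did not pass by edgeR. Between males and females the log2 difference was 0.50 (SE 0.20, BH-adjusted p = 0.0531), just short of the threshold, and it was 0.22 (BH-adjusted p = 0.185) without the 3 separated females by edgeR. It passed without LP female 3 (0.57, BH-adjusted p = 0.0253) or NP female 2 (0.57, BH-adjusted p = 0.0448), with DESeq2 (BH-adjusted p = 0.0362) and with limma-voom (BH-adjusted p = 0.0495). Among NP mice alone it was 1.00 (SE 0.30, BH-adjusted p = 0.0230) by edgeR, among LP mice -0.01 (BH-adjusted p = 0.986), and the NP value did not pass without NP male 3 (0.89, BH-adjusted p = 0.0574), NP female 1 (1.01, BH-adjusted p = 0.0622) or NP female 3 (0.85, BH-adjusted p = 0.109).

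*Hmox1* (ENSMUSG00000005413.9, chromosome 8, 75820241 to 75827217), the inducible enzyme that opens heme, varied more among females than any iron or heme synthesis gene of the 10. LP males had 1486, 1450.1, 2130.1, 1904 and 1422 normalized counts and NP males 1979, 2339, 1816, 1892 and 1811. LP females had 191, 193, 1250.0, 677 and 999, and NP females 453, 1813 and 207. The highest male was 1.64-fold above the lowest, and the highest female 9.48-fold above the lowest. The 3 separated females had the lowest levels of all 18 libraries, from 191 to 207, and NP female 2 was the one female within the male range. The log2 difference between males and females was 1.30 (SE 0.40, BH-adjusted p = 0.0147 by edgeR), a 2.46-fold difference, and without the 3 separated females it was 0.78 (BH-adjusted p = 0.0203, 1.72-fold) by edgeR. All 5 LP males were above all 5 LP females, as held for 9.52% of all genes tested, but the adjusted p was 0.0714 by edgeR. That LP difference, 1.36 on the log2 scale, passed without LP female 3 (1.70, BH-adjusted p = 0.0366), NP female 2 (1.36, BH-adjusted p = 0.0253) or NP female 3 (1.35, BH-adjusted p = 0.0403). The NP difference, 1.25 (BH-adjusted p = 0.139 by edgeR), passed without NP female 2 (2.56, BH-adjusted p = 0.00579), and the difference over both diets was 1.96, BH-adjusted p = 0.000583 without that mouse. With diet, the log2 fold change was -0.22 (SE 0.13, BH-adjusted p = 1.00) in males and -0.33 (SE 0.79, BH-adjusted p = 0.952) in females by edgeR, and the female value was -0.22 without the 3 separated mice and 1.01, BH-adjusted p = 0.515 without NP female 2.

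**Figure D4:**
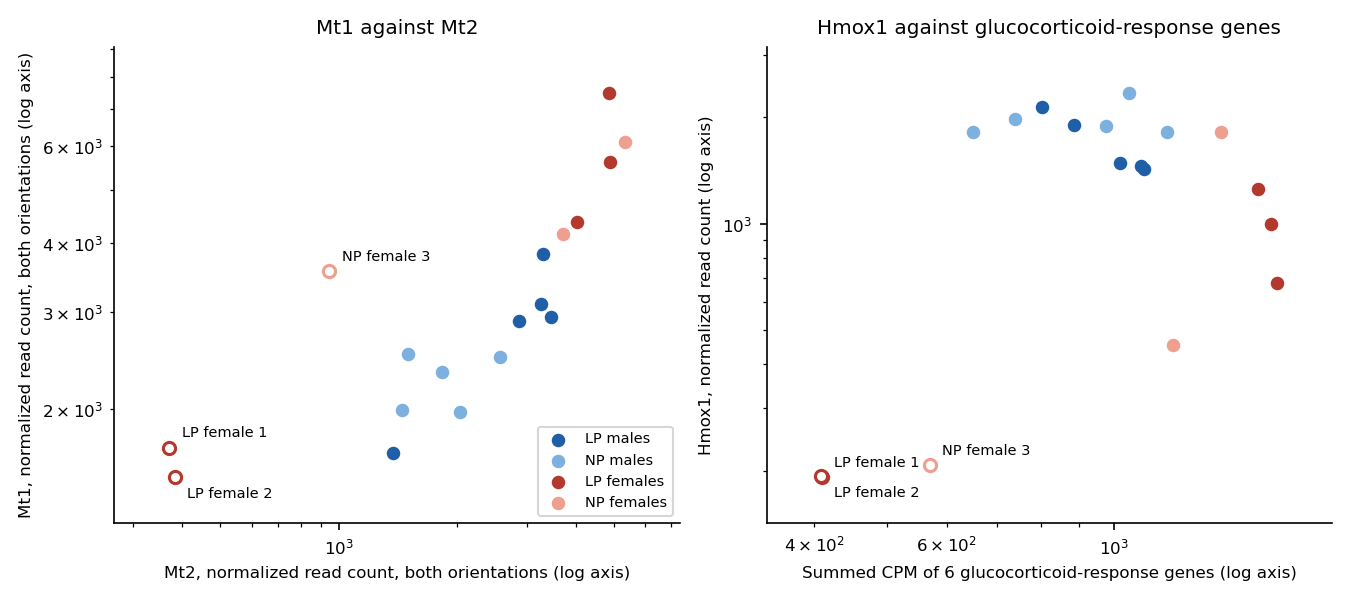
Left, normalized read counts of *Mt1* and *Mt2* with both orientations summed (log axes), and right, *Hmox1* against the summed CPM of 6 glucocorticoid-response genes (log axes), 1 point per mouse. Open, labelled points are the 3 separated females. They have the lowest *Mt2* and the lowest *Hmox1* levels of the 18 libraries and a higher *Mt1* to *Mt2* ratio than the other 15.

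The promoters of the metallothionein genes are shown because *Mt1* and *Mt2* lie side by side on chromosome 8 and are known to be induced together. The windows are RefSeq's on GRCm38.p6, from 250 bases before to 50 bases after the RefSeq gene start. They lie at chr8:94178839-94179138 for *Mt1* and chr8:94172368-94172667 for *Mt2*, both on the plus strand. These windows lie closer together than the GENCODE starts of the same genes. At least 1 RefSeq start may therefore differ from the GENCODE start, which was not checked. Capitals mark the core of the metal response element, the site of the zinc-sensing factor MTF1, searched as TGCACNC or TGCGCNC on both strands.
Mt1: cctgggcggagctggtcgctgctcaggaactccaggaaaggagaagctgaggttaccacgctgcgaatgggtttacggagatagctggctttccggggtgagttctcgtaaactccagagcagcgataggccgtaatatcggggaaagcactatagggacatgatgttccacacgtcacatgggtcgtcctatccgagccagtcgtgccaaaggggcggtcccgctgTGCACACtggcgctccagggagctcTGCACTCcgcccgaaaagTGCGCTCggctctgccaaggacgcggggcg
Mt2: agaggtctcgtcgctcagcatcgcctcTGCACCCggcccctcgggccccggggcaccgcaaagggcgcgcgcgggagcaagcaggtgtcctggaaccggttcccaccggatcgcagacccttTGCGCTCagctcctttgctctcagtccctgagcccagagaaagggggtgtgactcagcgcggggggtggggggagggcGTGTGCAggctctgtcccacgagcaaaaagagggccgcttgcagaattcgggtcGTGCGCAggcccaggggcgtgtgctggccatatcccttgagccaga

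The *Mt1* window held 3 cores and the *Mt2* window 4, none of them overlapping. Of 32851 promoter windows of 300 bases, 1.97% held at least 3 and 0.517% at least 4. A match of letters does not show that a factor binds there.

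*Mt1* (ENSMUSG00000031765.9, chromosome 8, 94905710 to 94906955) was lower in males, by 1.71-fold. LP males had 3103, 3812, 1654, 2882 and 2936 normalized counts and NP males 1988, 2328, 2478, 1961 and 2509.7. LP females had 1697, 1499.7, 5609, 7489 and 4369, and NP females 6110.3, 4154 and 3556. The 5 females outside the separated set were each above every male, and LP females 1 and 2 were near the lowest male, and NP female 3 lay within the male range. The log2 difference was -0.77 (SE 0.26, BH-adjusted p = 0.0250 by edgeR), with 10 of 10 males below the female median. Without the 3 separated females it was -1.11 (BH-adjusted p = 9.77e-05, 2.16-fold lower), and without NP female 1 it did not pass (-0.65, BH-adjusted p = 0.0819), both by edgeR. Among NP mice alone it was -1.04 (BH-adjusted p = 0.0585 by edgeR), and it passed without LP female 1 (-1.04, BH-adjusted p = 0.0343), LP female 2 (-1.05, BH-adjusted p = 0.0286) or LP female 4 (-1.05, BH-adjusted p = 0.0384), all of which enter the same 4-group fit, and with DESeq2 (BH-adjusted p = 0.0360) or limma-voom (BH-adjusted p = 0.00639). Among LP mice it was -0.51 (BH-adjusted p = 0.342 by edgeR). When the 3 separated females were left out it was -1.01 (BH-adjusted p = 0.00440 by edgeR) among LP mice and -1.21 (BH-adjusted p = 0.00293 by edgeR) among NP mice. With diet, the log2 fold change was 0.36 (SE 0.18, BH-adjusted p = 1.00) in males and -0.16 (SE 0.50, BH-adjusted p = 0.962) in females by edgeR.

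*Mt2*, with both orientations summed, had 3262, 3312, 1372, 2866 and 3470.5 normalized counts in LP males and 1445, 1825, 2572, 2036 and 1501 in NP males. LP females had 370.2, 382, 4887, 4849 and 4031, and NP females 5342, 3718 and 946. The 3 separated females were below every male and the other 5 females above every male, so the 8 females held both the lowest and the highest levels. The log2 difference between males and females was -0.43 (SE 0.45, BH-adjusted p = 0.486) and did not pass by edgeR. Without the 3 separated females, the orientation-blind counts gave -0.99 (SE 0.30, BH-adjusted p = 0.0163) by edgeR, on 417 counts over all 18 libraries. LP over NP in males, it was 0.62 (SE 0.23, BH-adjusted p = 1.00) with the orientations summed and 0.86 (SE 0.34, BH-adjusted p = 1.00) from the orientation-blind counts, at unadjusted p of 0.0208 and 0.0251. In females it was -0.21 (SE 0.90, BH-adjusted p = 0.963) with the orientations summed.

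The ratio of *Mt1* to *Mt2* counts within a library set the same 3 females apart. With the orientations summed it was 4.58 in LP female 1, 3.92 in LP female 2 and 3.76 in NP female 3, and between 0.846 and 1.67 in the other 15 libraries. *Mt2* was therefore lower relative to *Mt1* in these 3 mice than in the rest. Between LP males and LP females the log2 ratio differed by -0.99 (exact two-sided permutation p = 0.0476, n = 5 and 5, adjusted p over 8 ratio tests = 0.349). Without LP females 1 and 2 it differed by -0.28 (exact permutation p = 0.214, n = 5 and 3). From the orientation-blind counts, with 0.5 added because LP female 1 had 0 *Mt2* counts, it differed by -1.69 (exact permutation p = 0.0794, n = 5 and 5). With diet, the log2 ratio with the orientations summed differed by -0.26 in males and 0.27 in females, with exact permutation p of 0.183 and 0.536, and by 0.14 in females without the 3.

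**Figure D5:**
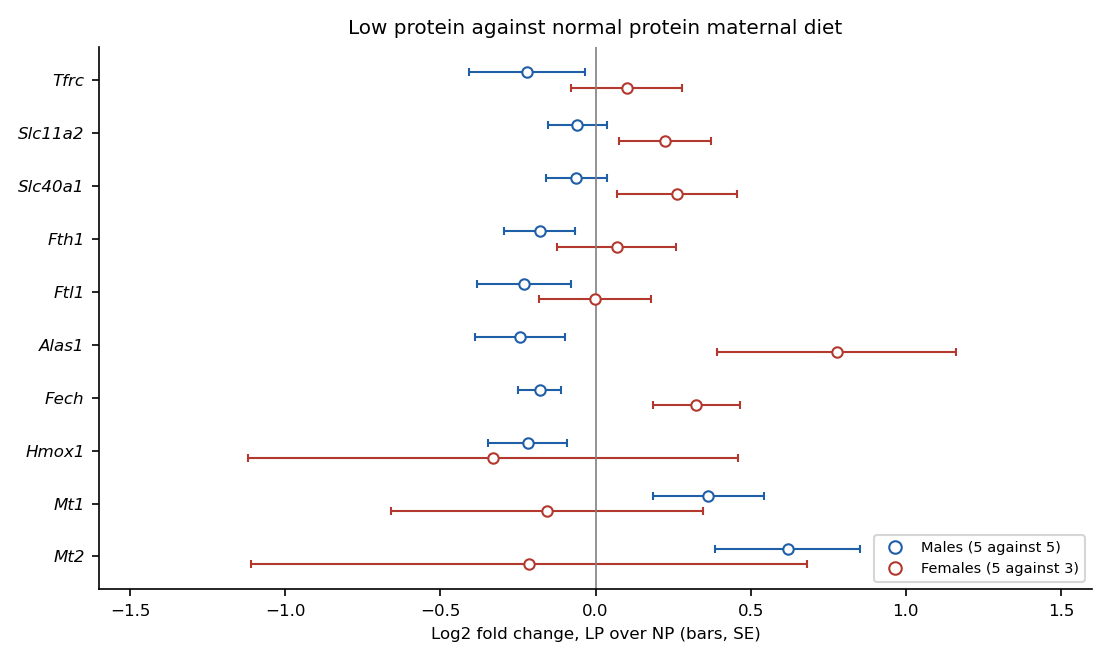
Log2 fold change of LP over NP mice in males (blue) and females (red), with the SE as a bar, with *Ftl1* and *Mt2* from the summed orientations. None of the values passed an adjusted p of 0.05 by edgeR, and the female bars of *Hmox1*, *Mt1* and *Mt2* are the widest.

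At an unadjusted p under 0.05, 2 of 10 genes (*Fech* and *Mt2*) differed by diet in males and 1 of 9 (*Fech*) in females by edgeR, against 3.84% and 4.17% of all genes. After adjustment, DESeq2 and limma-voom also called 0 of these genes for diet in males and 0 in females. The median log2 fold change of LP over NP was -0.18 over the genes in males and 0.10 in females, and -0.00 and -0.01 over all genes. Markers of red cells, whose precursors make heme in large amounts, summed to 10.1 to 75.2 CPM in LP males, 10.1 to 55.7 in NP males, 19.1 to 127 in LP females and 58.9 to 174 in NP females, with *Hba-a2* and *Hbb-bs* listed at 0 in the orientation-blind counts. Their part in the values above was not tested.

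Within a diet, 2 of 9 genes (*Tfrc* and *Slc11a2*) passed between LP males and LP females, against 18.5% of all genes, and 5 of 9 (*Tfrc*, *Slc11a2*, *Fth1*, *Alas1* and *Fech*) between NP males and NP females, against 24.4% (edgeR). Leaving out the 3 separated females, the counts were 4 of 10 beside 18.9% of all genes and 7 of 10 beside 22.4%. The LP set then added *Fech* (0.29, BH-adjusted p = 0.0439) and *Mt1*, and the NP set *Mt1* and *Mt2* (-1.34, BH-adjusted p = 0.0458), by edgeR. This *Mt2* value rests on the orientation-blind counts, which kept 0.845% of its reads, and the summed orientations were not fitted without the 3 females. The other sex differences that passed then were, on LP and NP, 0.97 and 1.33 for *Tfrc* and 0.45 and 0.64 for *Slc11a2*, and on NP 0.55 for *Fth1*, 0.85 for *Alas1* and 0.73 for *Fech*. Over all mice, the 9 genes had a median log2 difference of 0.24 on the LP diet and 0.72 on the NP diet. Whether the sex difference depended on diet is the same test as the interaction, in which 0 of 9 genes passed by edgeR (lowest BH-adjusted p = 0.977), 2 (*Fech* and *Alas1*) had an unadjusted p under 0.05, where 4.02% of all genes were under that p and 0.0158% passed adjustment. DESeq2 called 0 of 9 in that test, and limma-voom 1, *Fech*.

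Other genes of the same pathways were read from lists of 66 genes beside the 10. In males against females, 22 of 53 tested passed, 13 higher and 9 lower in males, or 41.5% against 38.7% of all genes by edgeR, which gave all values for these lists. Without the 3 separated females, 29 of 53 passed, 16 higher and 13 lower, or 54.7% against 37.7% of all genes. In heme synthesis, *Cpox*, coproporphyrinogen oxidase, ran 2065 to 3514 normalized counts in males and 653 to 1507 in females, with no overlap. Its log2 difference was 1.49 (SE 0.14, BH-adjusted p = 2.28e-07). *Uros*, the enzyme that closes the porphyrin ring, was higher in males by 0.39 on the log2 scale. *Ppox*, which acts just before *Fech*, was lower, at -0.74 (SE 0.21, BH-adjusted p = 0.00869), and did not pass without the 3 separated females (-0.28, BH-adjusted p = 0.167). With *Alas1* and *Fech*, 4 of 10 heme synthesis genes were higher and 1 lower in males, beside 18.9% and 19.8% of all genes. Their median log2 difference was 0.22 beside -0.05 over all genes.

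The widest difference among genes of iron and ferritin uptake was that of *Timd2*, a cell-surface receptor for heavy-chain ferritin in mice. It ran 589.9 to 1407 normalized counts in males and 70.3 to 179 in females, and its log2 difference was 3.19 (SE 0.23, BH-adjusted p = 9.14e-09), a 9.13-fold difference that was 3.21 without the 3 separated females. *Slc39a14*, an importer of iron not bound to transferrin, was higher in males at 1.02 (SE 0.28, BH-adjusted p = 0.00795). *Steap2*, a metalloreductase, and *Slc22a17*, a lipocalin receptor, were lower, at -0.55 and -0.39. *Lrp2* and *Cubn*, the proximal tubule receptors that retrieve filtered proteins, had log2 differences of -0.17 (SE 0.22, BH-adjusted p = 0.567) and 0.01 (SE 0.19, BH-adjusted p = 0.975) and did not pass. With *Tfrc* and *Slc11a2*, 4 of 11 uptake genes were higher and 2 lower in males, beside 18.9% and 19.8% of all genes. Their median log2 difference was 0.00924. Excluding the 3 separated females, 4 were higher and 5 lower, a median of -0.29.

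Among genes of iron export and systemic control, those that passed were lower in males. Of 11 listed genes, 6 were tested, and 0 were higher and 3 lower in males, beside 18.9% and 19.8% of all genes. Without the 3 separated females, 4 were lower, where 37.7% of all genes passed in either direction. The 3 over all mice were the iron oxidase *Heph* at -1.01 (SE 0.16, BH-adjusted p = 7.83e-05), *Trf*, which encodes transferrin, at -1.29 (SE 0.31, BH-adjusted p = 0.00298), and the iron-sensing cofactor *Hfe* at -0.49 (SE 0.18, BH-adjusted p = 0.0345). *Tmprss6*, a protease that restrains hepcidin, was singled out after its values were seen because it missed the minimum count in males. It ran 0 to 3.63 normalized counts in males and 46.1 to 611 in females. Among heme exporters and carriers, *Flvcr1* and *Flvcr2* were lower in males by 2.07-fold and 2.20-fold, *Pgrmc1* was lower by 1.32-fold, and *Abcg2* was higher by 1.59-fold. The iron regulatory protein genes *Ireb2* and *Aco1* were higher in males, at 0.59 (SE 0.13, BH-adjusted p = 0.00229) and 0.23 (SE 0.08, BH-adjusted p = 0.0292), and *Fbxl5*, which targets *Ireb2* protein for decay, did not pass at 0.11 (SE 0.07, BH-adjusted p = 0.261).

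In the mitochondrial iron list, *Nfs1*, which supplies sulfur for iron-sulfur clusters, was higher in males by 0.50 on the log2 scale, and 7 of 9 genes did not pass, or 5 of 9 without the 3 separated females. In the storage list, *Pcbp3*, of the family that delivers iron to ferritin, was higher at 0.94 (SE 0.11, BH-adjusted p = 3.83e-06). Among zinc genes, the exporter *Slc30a1*, itself a target of MTF1, was higher in males at 0.60 (SE 0.10, BH-adjusted p = 0.000170) while *Mt1* was lower, and *Mtf1* did not pass at 0.03 (SE 0.11, BH-adjusted p = 0.860). *Slc39a10*, a zinc importer, was higher at 0.73 (SE 0.10, BH-adjusted p = 2.3e-05). For diet, 0 of 53 pathway genes passed in males and 0 of 54 in females by edgeR, with lowest adjusted p of 1.00 and 0.886.

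Cell type markers also differed between males and females, and their counts of genes that passed stand beside 18.9% of all genes higher and 19.8% lower in males. The 6 proximal tubule markers summed to 9583 to 11407 CPM in males and 5641 to 9541 in females, and 2 of 6 were higher in males by edgeR, but the median log2 difference of the 6 was -0.17. The 8 macrophage markers, of a cell type that recycles heme iron, summed to 77.8 to 114 CPM in males and 107 to 184 in females, with 3 of 7 lower in males. Podocyte markers were lower in males in 4 of 4, thick ascending limb markers in 2 of 3, distal nephron markers in 3 of 5 and tubular injury genes in 2 of 4. Endothelial markers passed in 0 of 4, interferon genes in 0 of 7, the 1 red cell marker tested did not pass, and glucocorticoid-response genes were lower in males in 2 of 6. Without the 3 separated females, interferon genes were lower in males in 7 of 8, glucocorticoid-response genes in 4 of 6, tubular injury genes in 3 of 4, thick ascending limb markers in 3 of 3, endothelial markers in 1 of 4 and macrophage markers in 0 of 7, and the podocyte, distal nephron and proximal tubule counts were as before. Adipocyte markers, none of which reached the minimum count, summed to 0 to 80.1 CPM in males and 0.106 to 234 in females. The part of these markers in the differences of the iron, heme and metallothionein genes was not tested.

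Across the 18 libraries, after group means were removed, each gene was compared with all 12665 genes at 10 or more counts in every library. These correlations describe libraries that share depth and the 3 separated females, so no test was made. The genes most like *Hmox1* were *Atp2a2*, *Sptlc2* and *Gm15459* (r from 0.95 to 0.96), and those most like *Alas1* were *Enpp1*, *Itgb3* and *B4galt1* (r of 0.93). *Mt1* was closest to *Dclre1b*, *Efhd2* and *Cdkn1a* (r from 0.92 to 0.95), and *Mt2* with summed orientations to *Map3k6*, *Angptl4* and *Steap4* (r of 0.98). *Fth1* was closest to *Xrcc1*, *Pex14* and *Ggt1* (r from 0.94 to 0.95), *Ftl1* from its orientation-blind counts to *Uqcrb*, *Atp5mg* and *Uqcr10* (r from 0.97 to 0.98), and *Slc40a1* to *Usp46* and *Tpcn1* (r of 0.89 and 0.88). *Tfrc* was closest to *Lipo3*, *Ttc13* and *Nop9* (r of 0.83), *Slc11a2* to *Dpp9*, *Proser1* and *Eya3* (r from 0.81 to 0.91), and *Fech* to *Pacs2*, *Gnpda1* and *Lztfl1* (r from 0.86 to 0.88). The median absolute r over all genes ranged from 0.24 for *Tfrc* to 0.47 for *Ftl1*. Among the 10 themselves, r was 0.92 for *Mt1* and *Mt2*, 0.84 for *Alas1* and *Mt2*, 0.77 for *Hmox1* and *Alas1*, and -0.71 for *Fth1* and *Fech*.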

How the data were processed

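Non-directional RNA-seq libraries were aligned by the authors with STAR to GRCm39. The deposited files hold gene counts, read from the orientation-blind column, with 2 further columns by orientation. Gene symbols and positions came from GENCODE vM39. The 10 genes and all lists were chosen with earlier results of these data known, and the 10 are all described, with other genes named from the fixed pathway lists and, for likeness, the 3 genes with the highest Pearson r, except for genes not reported here. Genes holding 10 or more counts in all libraries of a fit were tested with edgeR 4.0.16 (TMM, quasi-likelihood, Benjamini-Hochberg adjustment over all genes tested). Diet was fitted within each sex, and sex and the interaction over 4 groups. Normalized counts used DESeq2 1.42.0 size factors on genes over the minimum. Ratios used exact two-sided permutation tests with 0.5 added. Depth was at least 14050486 reads on genes in each library. The edgeR code was tested on simulated data, where the diet test recovered 80.9% of 2-fold changes in males and 21.6% in females. Alternatives were other filters, scaling, DESeq2, limma-voom 3.58.1, a replicate block, a fold threshold, leaving out mice, and, added after seeing the data, the sum of both orientations. Hairpin results for *Fech* are not reported here.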

Additional observations from a re-analysis of the deposited data

Results flagged for a closer look

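The diet difference of *Fech* stood out because it went opposite ways in the sexes. It was 0.50 on the log2 scale in females minus males (unadjusted p = 0.00131, BH-adjusted p = 0.977 by edgeR), and on normalized counts, though not on CPM, each LP male was below each NP male and each LP female above each NP female. It was not significant after adjustment with edgeR or DESeq2 and was with limma-voom (BH-adjusted p = 0.0390).

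Reads that the orientation-blind counts leave out were present in the counts by orientation, which came to 49362 for *Mt2* and 624725 for *Ftl1* over 18 libraries. These sums include any reads from the antisense genes *Gm45774* and *Gm10252*, which could not be separated. In 30 checks of the 10 genes within the groups of 5 mice, no single mouse stood apart by Dixon's criterion. That criterion looks for 1 mouse apart and could not flag LP females 1 and 2, which lay together. Their *Hmox1* levels, for example, were 191 and 193, beside 1250, 677 and 999 in the other LP females. The NP females, 3 mice, were not checked.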

How the results depend on the processing

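Of 956 recomputed values of single genes, 907 kept their direction and their side of the threshold. For diet in males, 5 genes of all tested passed, against 9 with no filter, 19 with DESeq2, 2 with a replicate block and 1 with all 4 groups in 1 model. For diet in females the counts were 0, 3 with no filter, 9 with DESeq2, 2 with all groups and 1 without the 3 separated females. For the interaction they were 2, 5 with DESeq2, 7 with limma-voom, and 0 with the block, without the 3 females or with both orientations summed, and limma-voom called 1 of the 10 genes. With at least a 1.5-fold change, 2370 of 4900 genes and 3 of the 10 remained between males and females, and 1503 of 2344 and 1 of the 10 on the LP diet. On that diet limma-voom called 3654 genes and 5 of the 10, and 4 of the 10 passed without the 3 females. Directions turned for diet in females in *Hmox1* (0.61) and *Fth1* (-0.0585) with limma-voom, *Tfrc* with the replicate block (-0.0182), and *Ftl1* (0.12) and *Mt1* (0.18) without the 3 females, and between sexes in *Slc40a1* with limma-voom (0.0924) and without the 3 females (0.0176). From the orientation-blind counts, the log2 *Fth1* to *Ftl1* ratio without the 3 females turned to -0.00927 for diet in females and -0.0169 between NP sexes, and *Mt1* to *Mt2* to -0.0561 for diet in females, whereas the summed-orientation ratios did not turn in these 3 comparisons. Against the orientation-blind value, the summed *Mt1* to *Mt2* ratio was -0.99 between LP sexes and turned to -0.46 between NP sexes, which became 0.11 without the 3 females. Same-numbered mice did not deviate together in a regular way. The median r ran from -0.42 to 0.12 and single pairs from -0.57 to 0.46, with 2 of 3 pairs over 0.1 between NP males and NP females. The replicate block ended the NP sex difference of *Alas1* (0.94, adjusted p = 0.0629).

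Leaving out 1 mouse at a time gave 2 to 6 genes for diet in males, 0 to 2 in females, 0 to 4 for the interaction, 4440 to 5314 between sexes, 1606 to 2651 among LP and 2164 to 3947 among NP mice. Of the 10 genes, 5 to 7, 2 to 4 and 3 to 6 passed in these last 3 comparisons, and 0 for diet. For diet, the log2 fold change ranged from -0.11 to 0.00712 for *Slc11a2* in males (positive without LP male 2), and in females from -0.77 to 1.01 for *Hmox1* (positive without NP female 2), from -0.0549 to 0.25 for *Fth1* (negative without NP female 2), from -0.41 to 0.20 for *Ftl1* (positive without NP female 3) and from -0.47 to 0.12 for *Mt1* (positive without LP females 1 or 2 or NP female 1). For the ratios this was run on the orientation-blind counts alone. The log2 *Fth1* to *Ftl1* ratio ranged from -0.0142 to 0.17 for diet in males, from -0.15 to 0.35 for diet in females and from -0.0169 to 0.49 between NP sexes, and *Mt1* to *Mt2* from -2.17 to -0.81 between LP sexes. The cause of these changes was not tested.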
